A study of Mus musculus with 18 samples.

Results

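The contraction of skeletal muscle starts at the triad, the junction at which a transverse tubule of the plasma membrane meets the sarcoplasmic reticulum, the internal calcium store. Messenger RNA of 10 genes of this structure was followed in mouse myoblasts, the proliferating precursors of muscle cells, as they began to differentiate. The 10 genes are *Ryr1*, *Cacna1s*, *Cacnb1*, *Cacng1*, *Atp2a1*, *Atp2a2*, *Casq1*, *Casq2*, *Jph1* and *Jph2*. They were chosen by symbol for their role at the triad, and all 10 were found among the 19153 genes of the deposited files.

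RNA-seq had been performed on wildtype (WT) and LAP2α knockout (KO) cells in 3 states, with 3 replicate libraries per genotype and state, 18 in all. LAP2α is a nucleoplasmic protein encoded by *Tmpo* that binds lamin A/C. Both genotypes came from one immortalized myoblast line of a p53 knockout mouse. KO cells had received Cas9 with an sgRNA against LAP2α, WT cells had received the same Cas9 plasmid without an sgRNA, and both were sorted in bulk by the fluorescent protein of the plasmid, so neither is a single clone. Proliferating cells (Prol) grew in 20% serum, D0 cells were harvested in the same medium as they became confluent, and D2 cells had then spent 2 days in 5% serum. The labels number the replicates but do not say whether they were separate cultures, so the p-values below measure the spread between these libraries, which may be technical. Expected counts (RSEM estimates of the reads per gene) totalled 26437823 to 41619016 per library. Values are given in CPM, the counts of a gene relative to the size of its library, as scaled between libraries by the authors. A gene with 3 or fewer counts is treated as not detected, a limit of 0.0651 to 0.119 CPM depending on the library, which allows for counting error and nothing else. *Tmpo* was at 310, 275 and 315 CPM in the WT Prol libraries and at 250, 228 and 260 CPM in the KO Prol libraries, a value that sums all isoforms and does not check the loss of LAP2α itself.

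In skeletal muscle, depolarization of the tubule moves a voltage sensor, the L-type calcium channel CaV1.1, which is mechanically coupled to the ryanodine receptor RyR1 in the facing reticulum membrane and opens it. Calcium leaves the reticulum, where calsequestrin stores it, and is pumped back by the SERCA ATPases, while junctophilins hold both membranes at the distance that coupling requires. Several of these parts exist in a fast skeletal form and in a form that is also found in heart or in non-muscle cells, among them the SERCA pumps *Atp2a1* and *Atp2a2*, the calsequestrins *Casq1* and *Casq2*, and the junctophilins *Jph1* and *Jph2*.

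The state of the cells was read from marker genes. The summed level of 6 genes of differentiating muscle (*Myog*, *Ckm*, *Mymk*, *Myh3*, *Tnnc2* and *Acta1*) was 2.16 to 25.6 CPM in the 12 Prol and D0 libraries, 2404 to 4924 CPM in WT D2 and 1435 to 1809 CPM in KO D2. Of 7 myoblast markers, 5 were found (*Pax7* and *Msc* were not analysed here), and *Myod1* was present at 0.736 to 5.88 CPM in the Prol libraries. The 5 summed to 31.4 to 51.0 CPM before D2, 458 to 658 CPM in WT D2 and 299 to 359 CPM in KO D2. Their sum, led by *Des*, was thus also higher at D2 and lower in KO D2 than in WT D2. The 5 did not all move this way. From Prol to D2, 4 had a positive and 1 a negative log2 fold change in each genotype. The positive share of the whole set was 49.4% (WT) and 51.3% (KO). From D0 to D2 in WT, 4 were called higher and 1 lower (limma adjusted p under 0.05), beside shares of 14.7% and 11.3%. For KO against WT at D2, 4 were negative and 1 positive, where 52.2% of the whole set were negative. Summed markers of fibroblasts, led by the collagen gene *Col1a1*, ranged from 289 to 4139 CPM before D2, from 1919 to 12463 CPM in WT D2 and from 3313 to 13759 CPM in KO D2. Markers of cardiomyocytes (4 of 8 found) summed to at most 21.9 CPM in any library, and those of endothelial cells (4 of 5 found) to at most 2.74 CPM. The bulk RNA does not separate fewer cells of a type from less RNA per cell.

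Across the 10 genes, 9 rose from Prol to D2 in WT and the same count, 9, rose in KO, while *Atp2a2* did not pass the test in either (limma on log2 CPM over 17672 genes, Benjamini-Hochberg adjusted p under 0.05). Over all genes tested, 16.6% were called higher in WT and 17.1% in KO. The median log2 fold change of the 10 genes was 6.92 in WT and 5.94 in KO, against -0.01 and 0.02 over all genes tested. Genes were tested if some group had over 5 expected counts in each of its 3 libraries. All 10 genes passed this filter, but *Cacna1s*, *Atp2a1* and *Casq1* passed only through their D2 libraries and so had to differ, and of the other 7, 6 were called. In 9 genes each D2 library lay above each Prol library, in WT (23% of all genes) and in KO (25.1%). The comparison of D2 with D0 gave 9 genes higher in WT, where 14.7% of all genes were called higher, and 9 higher in KO, where 15.3% were, and *Atp2a2* was again the exception. A second rule, adapted from the criteria of the study and here called the 1.5-fold rule, asked for an unadjusted p under 0.05, a change of over 1.5-fold and a level of 10 CPM or more in some library. It called 8 genes higher in each of these 4 comparisons, where it called 10.8% (WT D2/Prol), 11.3% (KO D2/Prol), 10.4% (WT D2/D0) and 10.5% (KO D2/D0) of all genes. Over all genes tested in WT D2/Prol, the 1.5-fold rule called 1906 higher and 2261 lower. With 1.5 as a threshold on the log2 scale it called 780 higher and 578 lower. The methods of the study word the change on the log2 scale, but the gene counts it reports for this comparison lie nearer to the former. With 1.5 on that scale, the rule called 7 genes in WT D2/Prol (4.41% of all genes), 7 in KO D2/Prol (4.65%), 8 in WT D2/D0 (4.1%) and 7 in KO D2/D0 (4.18%).

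**Figure D1:**
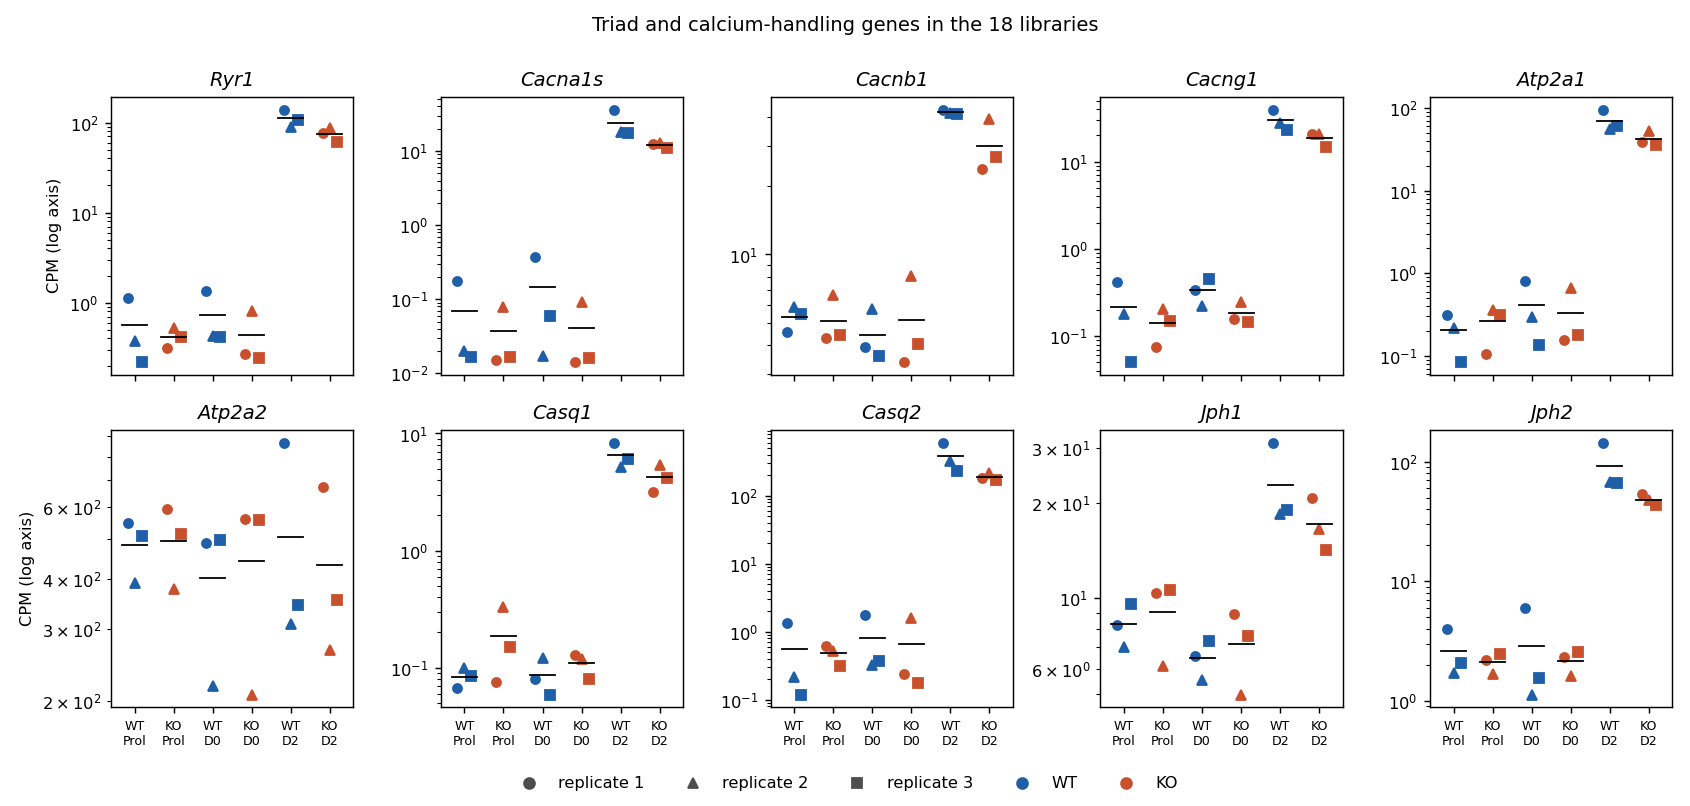
CPM of each of the 10 genes in the 18 libraries, on a log axis that differs between panels, by genotype (colour) and replicate number (symbol), with a line at the mean of the 3 libraries of a group. In 9 panels the D2 libraries lie above all Prol and D0 libraries, whereas *Atp2a2* overlaps between the states and its replicate 1 libraries are the highest at D2 in both genotypes.

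*Ryr1* (ENSMUSG00000030592, chromosome 7, 29003344 to 29125179 on the minus strand of GRCm38) encodes the calcium release channel itself. It was at 1.11, 0.376 and 0.219 CPM in WT Prol and at 139, 88.7 and 108 CPM in WT D2. In KO it was at 0.315, 0.519 and 0.416 CPM in Prol and at 76.2, 86.4 and 61.0 CPM in D2. The D2 libraries of each genotype lay far above its Prol libraries, with no overlap. On the log2 scale the fold change was 7.93 (SE 0.58, limma adjusted p = 2.45e-07) in WT and 7.50 (SE 0.58, limma adjusted p = 5.75e-07) in KO. Within Prol, WT replicate 1 stood above the other libraries, and without it the WT value was 8.58.

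The voltage sensor is built from several subunits, and the 3 that belong to the list rose by very different amounts. *Cacna1s* (ENSMUSG00000026407, chromosome 1, 136052750 to 136119822, plus strand) encodes the pore and voltage-sensing subunit CaV1.1. It had 6, 0 and 0 expected counts in WT Prol and 0, 2 and 0 in KO Prol, and reached 36.1, 18.2 and 17.8 CPM in WT D2 and 12.4, 12.7 and 10.9 CPM in KO D2. The gene was thus undetected in all KO Prol libraries, and its rise there was at least 127-fold, computed against 3 counts per library. In WT the fitted log2 fold change was 9.19 (SE 1.09), without a p since the gene passed the filter only through D2. Replicate 1 held all counts of WT Prol, and without this library the value was 10.28. The latter value sets D2 against libraries with no counts and depends on the 0.5 counts that the authors added. *Cacng1* (ENSMUSG00000020722, chromosome 11, 107703218 to 107716522, minus strand), the gamma subunit of the muscle channel, went from 0.415, 0.178 and 0.0506 CPM in WT Prol to 39.2, 27.9 and 23.1 CPM in WT D2, a log2 fold change of 7.56 (SE 0.60, limma adjusted p = 3.88e-07). In KO it went from 0.0749, 0.204 and 0.150 CPM to 21.0, 20.7 and 14.6 CPM, with a log2 fold change of 7.13 (SE 0.60, limma adjusted p = 8.27e-07). Leaving out WT Prol replicate 1 or 3 moved the WT value to 8.27 or 6.76.

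*Cacnb1* (ENSMUSG00000020882, chromosome 11, 98001508 to 98023034, minus strand) encodes the beta subunit, which brings the channel to the membrane. Unlike the other subunits of the list it was well detected before differentiation, at 4.57, 5.91 and 5.51 CPM in WT Prol and 4.30, 6.65 and 4.44 CPM in KO Prol. In WT D2 it was at 43.0, 41.8 and 41.2 CPM, the narrowest spread of any of the 10 genes in this group. In KO D2 the libraries were at 23.6, 39.2 and 26.6 CPM, wider apart and all under the lowest WT value. From Prol to D2 the log2 fold change was 2.99 (SE 0.30, limma adjusted p = 3.08e-06) in WT and 2.53 (SE 0.30, limma adjusted p = 1.38e-05) in KO.

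The 2 pumps behaved differently. *Atp2a1* (ENSMUSG00000030730, chromosome 7, 126445858 to 126463108, minus strand) encodes SERCA1, the calcium ATPase of fast skeletal fibers. It was at 0.308, 0.217 and 0.0844 CPM in WT Prol and at 95.1, 55.2 and 59.8 CPM in WT D2. In KO it moved from 0.105, 0.362 and 0.316 CPM to 38.8, 53.0 and 35.8 CPM. This was a log2 fold change of 8.58 (SE 0.70) in WT and 7.52 (SE 0.70) in KO. No p is given, since the gene passed the filter only through its D2 libraries. The gene *Rabep2* overlaps it on the opposite strand at a mean of 19.8 CPM. The library kit keeps the strand, and the part of this neighbour in the values of *Atp2a1* was not tested.

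*Atp2a2* (ENSMUSG00000029467, chromosome 5, 122453513 to 122502225, minus strand) encodes SERCA2, whose splice forms serve the reticulum of heart and slow muscle and the endoplasmic reticulum of most cells. In WT it was at 549, 391 and 509 CPM in Prol, at 490, 217 and 498 CPM in D0 and at 865, 310 and 344 CPM in D2. In KO it was at 594, 377 and 516 CPM in Prol, at 561, 207 and 558 CPM in D0 and at 674, 267 and 354 CPM in D2. The states overlapped in both genotypes, and the libraries lined up by replicate number, with replicate 2 lowest in every group and replicate 1 highest in 5 of the 6 groups. The log2 fold change from Prol to D2 was -0.08 (95% confidence interval -1.10 to 0.93, limma adjusted p = 0.925) in WT and -0.29 (95% confidence interval -1.30 to 0.73, limma adjusted p = 0.701) in KO. A change of nearly 2-fold in either direction lies within these intervals. The genes whose log2 CPM followed *Atp2a2* most closely over the 18 libraries were *Zdhhc5* (Pearson r = 0.993) and *Qk* (r = 0.989), both of which were, like it, highest in replicate 1 at D2. The 18 libraries share the 3 states and the replicate numbers, and no p is given for these correlations.

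Calsequestrin is the calcium-binding protein of the reticulum lumen. *Casq2* (ENSMUSG00000027861, chromosome 3, 102086415 to 102146514, plus strand), the form of heart and slow muscle, showed the largest fitted rise of the 10 genes in WT. It went from 1.33, 0.217 and 0.118 CPM in WT Prol to 598, 325 and 233 CPM in WT D2, and from 0.614, 0.519 and 0.316 CPM in KO Prol to 182, 216 and 167 CPM in KO D2. The log2 fold change was 10.10 (SE 0.88, limma adjusted p = 7.86e-07) in WT, where it was 11.12 without Prol replicate 1 and 9.37 without Prol replicate 3, and 8.65 (SE 0.88, limma adjusted p = 3.17e-06) in KO. Of the 8 cardiomyocyte markers, *Myl7*, *Nppa*, *Nppb* and *Nkx2-5* were not analysed here, and of the other 4, 1, the myosin gene *Myh6*, rose, to 6.11 ± 4.59 CPM in WT D2 (SD, n = 3). *Casq1* (ENSMUSG00000007122, chromosome 1, 172209894 to 172219868, minus strand), the fast skeletal form, had 2 expected counts in each WT Prol library and reached 8.35, 5.15 and 6.03 CPM in WT D2, at least 65.1-fold higher. In KO it went from 0.0749, 0.330 and 0.150 CPM to 3.19, 5.43 and 4.15 CPM, with a log2 fold change of 4.75 (SE 0.49). This gene too passed the filter only through D2, so no p is given.

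Junctophilins anchor the reticulum to the plasma membrane. *Jph1* (ENSMUSG00000042686, chromosome 1, 16964560 to 17097889, minus strand), the main skeletal form, was already present in proliferating cells, at 8.26, 7.01 and 9.61 CPM in WT and at 10.4, 6.10 and 10.6 CPM in KO. At D2 it was at 31.1, 18.5 and 19.05 CPM in WT and at 20.8, 16.5 and 14.2 CPM in KO. Its rise was the smallest of the 9, with a log2 fold change of 1.43 (SE 0.29, limma adjusted p = 0.00123) in WT and 0.95 (SE 0.29, limma adjusted p = 0.0177) in KO. The KO call was lost without KO Prol replicate 2 (log2 fold change 0.69, limma adjusted p = 0.097) or without KO D2 replicate 1 (0.80, limma adjusted p = 0.0661). *Jph2* (ENSMUSG00000017817, chromosome 2, 163336242 to 163397993, minus strand), which is also the junctophilin of heart, went from 3.98, 1.72 and 2.08 CPM in WT Prol to 144, 66.9 and 66.6 CPM in WT D2. In KO it went from 2.17, 1.68 and 2.45 CPM to 53.9, 47.3 and 43.3 CPM. The log2 fold change was 5.15 (SE 0.50, limma adjusted p = 1.88e-06) in WT and 4.53 (SE 0.50, limma adjusted p = 6.34e-06) in KO. The genes most like *Ryr1* over the 18 libraries were *Mymk* (Pearson r = 0.993), *Acta1* (r = 0.993) and *Myl4* (r = 0.993), and those most like *Jph2* were *Mef2c* (r = 0.993), *Chrna1* (r = 0.992) and *Des* (r = 0.987), values that the gap between D2 and the other states largely sets.

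**Figure D2:**
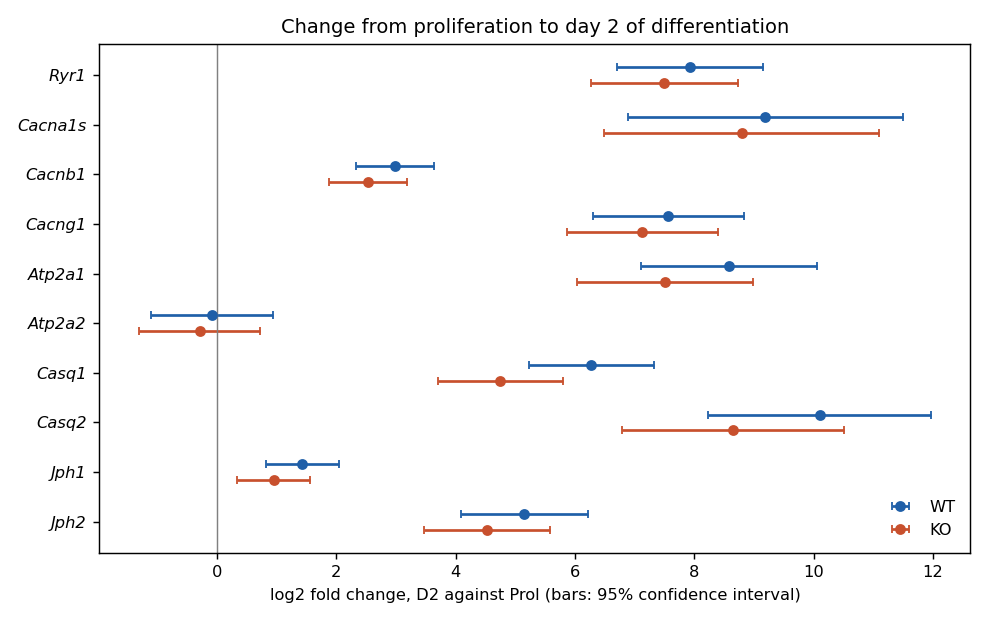
Fitted log2 fold change of CPM from Prol to D2 for each of the 10 genes in WT and KO (points), with 95% confidence intervals (bars). The intervals of 9 genes lie above 0 in both genotypes, and that of *Atp2a2* includes 0 in both. Of the 9, *Cacna1s*, *Atp2a1* and *Casq1* passed the filter only through their D2 libraries and so had to differ.

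D0 libraries resembled Prol libraries. None of the 10 genes was called between D0 and Prol in WT or KO by limma after adjustment, where 0.00566% of all genes (1 gene) were higher in WT and 0% in KO. None passed at an unadjusted p under 0.05 either, where 1.48% of all genes were higher and 0.696% lower in WT and 0.792% higher and 0.328% lower in KO. Traces of the muscle-specific members before D2 were uneven. *Ryr1* was highest in WT D0 replicate 1 (1.34 CPM), WT Prol replicate 1 (1.11 CPM) and KO D0 replicate 2 (0.799 CPM), and *Casq2* was highest in the same 3 libraries (1.74, 1.33 and 1.58 CPM). The myogenic regulator *Myog* was at 4.53, 1.30 and 3.15 CPM and the embryonic myosin gene *Myh3* at 11.3, 4.72 and 5.29 CPM in these libraries. In the other 9 Prol and D0 libraries, *Myog* reached at most 1.59 CPM and *Myh3* at most 4.32 CPM, both in KO Prol replicate 2.

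Levels of different genes were set beside each other only per kb of annotated exon sequence. At D2 in WT, *Casq2* was highest at 141 ± 69.4 CPM per kb (SD, n = 3), followed by *Atp2a2* at 83.3 ± 51.2 CPM per kb. These neighbours do not differ beyond their spread. *Cacng1* (24.1 ± 6.62), *Jph2* (21.7 ± 10.5) and *Atp2a1* (20.1 ± 6.28) came next and overlapped each other, all in CPM per kb (SD, n = 3). *Cacnb1* was at 9.27 ± 0.211 CPM per kb, and *Ryr1* (5.12 ± 1.15), *Jph1* (4.58 ± 1.42), *Cacna1s* (3.66 ± 1.60) and *Casq1* (3.34 ± 0.846) closed the order without a clear gap between neighbours (SD, n = 3). With the longest transcript as the length, *Ryr1* was at 7.28 and *Cacnb1* at 12.4 CPM per kb. In KO D2, *Atp2a2* (70.9 ± 35.2 CPM per kb) and *Casq2* (68.8 ± 9.06 CPM per kb) were the highest and overlapped (SD, n = 3).

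Ratios of paralogues were computed within each library, which cancels the scaling between libraries. The ratio of *Jph1* to *Jph2* per kb was 1.77 to 4.08 in the 6 Prol libraries and 0.184 to 0.329 in the 6 D2 libraries, so the more abundant junctophilin mRNA changed from *Jph1* to *Jph2*. On the log2 scale the ratio fell by 3.65 on average from Prol to D2, by 3.72 in WT and by 3.58 in KO (exact permutation test of the states within genotype, two-sided p = 0.005, adjusted over 3 ratios p = 0.005). The lowest value before D2 was 0.931 per kb, in WT D0 replicate 1. For the pumps, the ratio of *Atp2a1* to *Atp2a2* per kb was 0.000290 to 0.00168 in Prol and 0.101 to 0.348 at D2, and *Atp2a2* remained the more abundant one in every library. This log2 ratio was higher at D2 by 8.23 on average, by 8.66 in WT and by 7.80 in KO. The ratio of *Casq1* to *Casq2* per kb was 0.0704 to 1.00 in Prol, with 2 to 10 counts of *Casq1* per library, and 0.0196 to 0.0363 at D2. Its mean log2 difference between D2 and Prol was -3.86. No p is given for the ratios with *Atp2a1* and *Casq1*, which were tested only because of their D2 libraries. For *Jph1* and *Jph2*, the p of 0.005 is the smallest that the 400 arrangements of the labels can give.

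**Figure D3:**
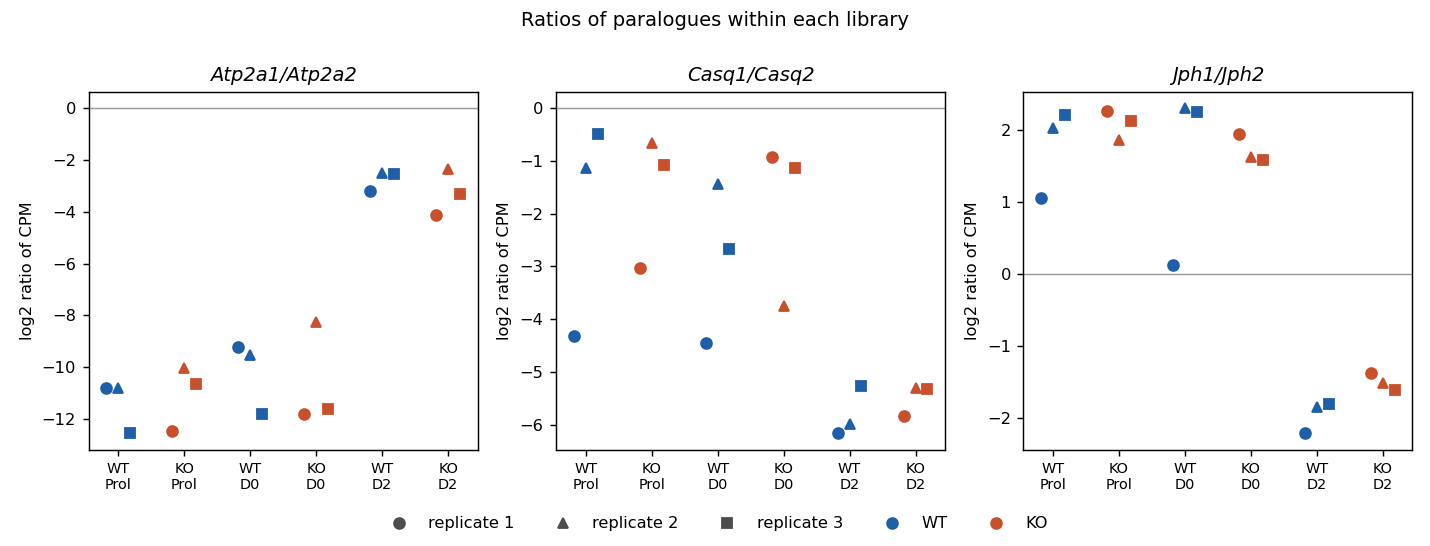
log2 ratio of CPM of 3 pairs of paralogues in each library, not corrected for length, by genotype (colour) and replicate number (symbol), with a line at equal CPM. The D2 libraries lie above all others for *Atp2a1/Atp2a2* and below all others for *Casq1/Casq2* and *Jph1/Jph2*, and the last crosses the line.

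Since 9 of the 10 genes rose together, their promoters were read for the motifs of muscle transcription factors. MyoD and myogenin bind the E-box, CANNTG, and favour its form CAGCTG in muscle genes, while MEF2 factors bind an AT-rich motif. RefSeq promoters of GRCm38.p6, each 300 bases long (250 before and 50 after the start of transcription), were matched for 7 of the 10 genes, 9 promoters in all, and none for *Cacng1*, *Atp2a2* and *Jph1*. Both strands were searched. At least 1 CANNTG was present in 7 of the 9 promoters (72.3% of all 32851 promoters hold one) and CAGCTG in 5 of the 9 (16.3% of all promoters), which belong to *Cacna1s*, *Casq1*, *Jph2* and *Atp2a1*. A MEF2 motif was found in *Casq2* only (3.19% of all promoters), and neither a CArG box nor TATAAA (1.63% and 13.6% of all promoters) was found in the 9. Every CAGCTG is also a CANNTG, and both *Jph2* promoters overlap and hold the same one. Shown are the pore subunit, the fast pump and the junctophilin that hold CAGCTG, and *Casq2*, which holds the MEF2 motif, on the strand of the gene at chr1:136052561-136052860 (plus), chr7:126463024-126463323 (minus), chr2:163397944-163398243 (minus) and chr3:102086165-102086464 (plus). Capitals mark E-boxes, and in *Casq2* also the MEF2 motif, TTATTTTTAG.
Cacna1s: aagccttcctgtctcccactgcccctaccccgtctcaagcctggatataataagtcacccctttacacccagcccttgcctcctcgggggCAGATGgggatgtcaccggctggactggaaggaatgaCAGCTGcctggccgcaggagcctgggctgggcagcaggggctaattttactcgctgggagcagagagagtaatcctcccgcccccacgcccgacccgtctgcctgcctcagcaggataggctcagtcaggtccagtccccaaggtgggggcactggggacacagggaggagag
Atp2a1: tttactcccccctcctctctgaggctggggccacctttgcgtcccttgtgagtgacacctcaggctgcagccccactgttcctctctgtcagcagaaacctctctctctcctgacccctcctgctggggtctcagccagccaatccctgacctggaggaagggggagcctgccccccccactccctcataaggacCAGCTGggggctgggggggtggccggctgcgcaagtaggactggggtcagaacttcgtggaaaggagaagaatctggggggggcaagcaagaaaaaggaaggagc
Jph2: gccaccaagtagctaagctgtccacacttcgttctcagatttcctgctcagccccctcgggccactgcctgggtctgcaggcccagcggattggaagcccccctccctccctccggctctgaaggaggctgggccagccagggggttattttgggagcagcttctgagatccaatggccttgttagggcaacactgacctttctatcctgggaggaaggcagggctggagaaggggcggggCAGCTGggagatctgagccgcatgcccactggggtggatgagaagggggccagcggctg
Casq2: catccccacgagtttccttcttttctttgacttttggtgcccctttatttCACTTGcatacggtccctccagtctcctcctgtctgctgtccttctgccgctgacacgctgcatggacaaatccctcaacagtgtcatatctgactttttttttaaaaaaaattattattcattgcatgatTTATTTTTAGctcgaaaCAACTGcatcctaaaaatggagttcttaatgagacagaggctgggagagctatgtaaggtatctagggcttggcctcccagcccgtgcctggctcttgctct
The CAGCTG starts at position -123 from the start of transcription in *Cacna1s*, -55 in *Atp2a1* and -9 in *Jph2*. In *Casq2*, the gene with the largest fitted rise in WT, the MEF2 motif starts at -69 and an E-box at -52. *Ryr1*, whose log2 fold change in WT exceeded that of *Jph2*, holds none of the 5 motifs in its 300 bases. A match is a description of letters and does not show that a factor was bound.

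Partners of these proteins were given by lists of related genes. Of 16 other triad genes, 15 were measured and tested. In WT, 12 rose and 1 fell from Prol to D2, and in KO 11 rose and 1 fell. Over all genes, 16.6% were called higher and 14.1% lower in WT, and 17.1% higher and 15.2% lower in KO. *Cav3*, the muscle caveolin, rose most, from 0.0787 ± 0.0546 to 39.1 ± 15.4 CPM in WT (SD, n = 3; log2 fold change 9.31). *Hrc* and *Trdn*, which bind calsequestrin or calcium in the reticulum, were at the detection limit in WT Prol and rose at least 303-fold and at least 69.1-fold. *Cav3*, *Hrc*, *Trdn* and *Jsrp1* passed the filter only through their D2 libraries and so had to differ, and no p is given for them. *Stac3*, which is required for coupling of the voltage sensor, rose in WT with a log2 fold change of 4.77 (limma adjusted p = 3.50e-07). *Tmem38a*, the TRIC-A potassium channel of the reticulum, *Srl* (sarcalumenin), *Cacna2d1* (the alpha2delta subunit of the channel) and *Bin1*, which shapes tubules, rose by smaller amounts, with log2 fold changes of 3.30, 3.01, 1.75 and 1.13 in WT. *Fkbp1a*, which encodes the FKBP12 protein that binds RyR1, fell by 0.87 on the log2 scale in WT (limma adjusted p = 0.00751) and by 0.95 in KO (limma adjusted p = 0.00423). Of the small peptides that regulate SERCA, *Mrln* (myoregulin) was measured and rose in WT from 0.134 ± 0.109 to 4.88 ± 2.15 CPM (SD, n = 3; log2 fold change 5.39, limma adjusted p = 5.49e-05). *Sln* and *Pln* were not analysed here.

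Paralogues of the 10 genes were listed too. Of 16, 14 were found and 12 passed the filter, of which 5 rose in WT and 6 in KO, and none fell, beside 16.6% and 17.1% of all genes called higher and 14.1% and 15.2% called lower in these comparisons. The T-type channel genes *Cacna1g* and *Cacna1h* and the gamma subunit *Cacng6* rose in both genotypes, and *Cacna1g* reached 38.9 ± 4.12 CPM in WT and 44.2 ± 4.46 CPM in KO D2 (SD, n = 3). *Ryr3* and *Cacnb4* also rose in both but reached at most 1.24 and 2.37 CPM in any library. *Ryr3* passed the filter only through its D2 libraries and so had to differ. *Cacnb3* was called in KO (log2 fold change 0.40, limma adjusted p = 0.0407) and not in WT (0.31, limma adjusted p = 0.121). The inositol trisphosphate receptors *Itpr1*, *Itpr2* and *Itpr3*, the channel subunits *Cacna1c* and *Cacnb2* and the third SERCA gene *Atp2a3* did not pass in either genotype, with log2 fold changes of -0.33, 1.02, 0.19, 1.08, -0.36 and 0.30 in WT. Among 10 genes of calcium entry and extrusion at the surface, 4 rose and 1 fell in WT, and 2 rose in KO, where the shares of all genes were 16.6% higher and 14.1% lower in WT and 17.1% higher in KO. The pump *Atp2b4* (2.58) and the exchangers *Slc8a3* (2.25) and *Slc8a1* (1.78) had the largest log2 fold changes in WT, and *Trpc1* fell by 0.94. Of 19 buffers and sensors, 5 rose in each genotype and none fell, against 16.6% (WT) and 17.1% (KO) of all genes called higher and 14.1% and 15.2% called lower. The rises were led in WT by *Pvalb*, the parvalbumin of fast fibers (at least 25.1-fold), *Camk2a* (log2 fold change 6.41) and *Nfatc4* (2.99).

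KO was compared with WT in each state. Each genotype was a bulk-sorted population, and the labels name no further one. An effect of LAP2α loss thus cannot be told apart from other differences between these populations. At D2, all 10 genes had a lower mean in KO, but none passed the test in the fit over all 18 libraries, with adjusted p = 1.00 for each (limma). At an unadjusted p under 0.05 this fit called none of the 10 as well. In 7 of the 10 (*Ryr1*, *Cacna1s*, *Cacnb1*, *Cacng1*, *Atp2a1*, *Casq2* and *Jph2*), each KO library was below each WT library, where 3.81% of all genes tested did so and 2.35% did the reverse. The median log2 fold change was -0.64 for the 10 genes and -0.01 over all genes tested, of which 52.2% had a negative value. No gene of the 17672 was called between KO and WT at D2 by limma after adjustment, and 1.09% were lower and 0.866% higher at an unadjusted p under 0.05.

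The largest differences were those of *Casq2* (188 ± 24.8 against 385 ± 190 CPM), *Cacna1s* (11.98 ± 0.963 against 24.0 ± 10.5 CPM) and *Jph2* (48.2 ± 5.35 against 92.5 ± 44.6 CPM), KO against WT (SD, n = 3 each). Their log2 fold changes were -0.93 (95% confidence interval -2.80 to 0.94), -0.92 (-3.23 to 1.38) and -0.85 (-1.91 to 0.21). Those of the other genes were -0.70 for *Atp2a1*, -0.67 for *Cacng1*, -0.62 for *Casq1*, -0.57 for *Ryr1*, -0.53 for *Cacnb1*, -0.39 for *Jph1* and -0.18 for *Atp2a2*. This fit shares its estimate of the spread among all 6 groups, of which 4 hold some of these genes at a few counts. The part of this in the width of the intervals was not tested. With only the KO and WT D2 libraries in the fit, the median standard error of the 10 log2 fold changes was 0.30 instead of 0.54, and *Cacna1s*, *Jph2*, *Casq2*, *Atp2a1* and *Cacng1* had unadjusted p between 0.0211 and 0.0433, where 1.38% of all genes were lower at this threshold. All 5 met the 1.5-fold rule in this fit, where 0.668% of all genes were called lower. The standard error in this fit was 0.28 for *Jph1* and 0.51 for *Atp2a2*, against 0.29 and 0.48 in the fit over all 18 libraries. Voom weights over all 18 libraries, also without a block, put 6 of the 10 genes at an unadjusted p under 0.05 (1.91% of all genes lower), and the 1.5-fold rule called 4 of them, *Cacna1s*, *Cacng1*, *Atp2a1* and *Jph2* (0.713% of all genes lower). The adjusted p of each of the 10 genes was 1.00 in both fits (limma).

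Same-numbered libraries deviated together at D2 (correlation of their deviations from the group means across genes 0.276 to 0.645), so the numbers were also used as a block. With voom weights and the number as a random block, 9 of the 10 genes, all but *Atp2a2*, were lower in KO at an unadjusted p under 0.05, where 3.63% of the 19153 genes in that fit were, and the lowest adjusted p was 0.261 (limma, *Jph2*). The 1.5-fold rule called *Cacna1s*, *Cacng1*, *Atp2a1*, *Casq2* and *Jph2* in this fit, 5 of 10, where 0.935% of its genes were called lower. With the number as a fixed block and no weights it called *Jph2* alone (log2 fold change -0.85, limma unadjusted p = 0.0294), where 0.521% of all genes were called lower. In the fit over all 18 libraries with neither weights nor a block it called none of the 10, where 0.255% of all genes were called lower. With 1.5 as the threshold on the log2 scale, none of the 10 was called between KO and WT at D2 in any of these 5 fits. The study itself named *Jph2* among the genes downregulated in KO. It reported more genes as downregulated in KO at D2 than the 45 that the 1.5-fold rule called lower with neither weights nor a block. Its model used the sequencing lane as a block, which could not be repeated here.

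By same-numbered libraries, KO was below WT in 10 of 10 genes in replicate 1, in 9 of 10 in replicate 2 and in 9 of 10 in replicate 3. The median log2 ratio of the 10 genes was -1.10, -0.19 and -0.63 in these. WT D2 replicate 1 held the highest value of all 10 genes, and its part in the difference was tested by leaving it out: the log2 fold changes were then -0.56 for *Casq2*, -0.59 for *Cacna1s*, -0.48 for *Jph2*, -0.46 for *Atp2a1*, -0.46 for *Cacng1*, -0.41 for *Ryr1*, -0.51 for *Cacnb1*, -0.42 for *Casq1*, -0.15 for *Jph1* and 0.29 for *Atp2a2*. The scaling factors of both D2 replicate 1 libraries (0.909 in WT and 0.931 in KO) stood apart from those of the other 4 D2 libraries (1.11 to 1.18). Within each of the 6 groups, the deviations of replicate 1 from the group mean correlated with the log2 length of the longest transcript (r = 0.221 to 0.418 across 10746 genes, which are not independent), and those of replicate 2 did so in the opposite direction (-0.495 to -0.202). The part of this trend in the values of single genes was not tested.

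**Figure D4:**
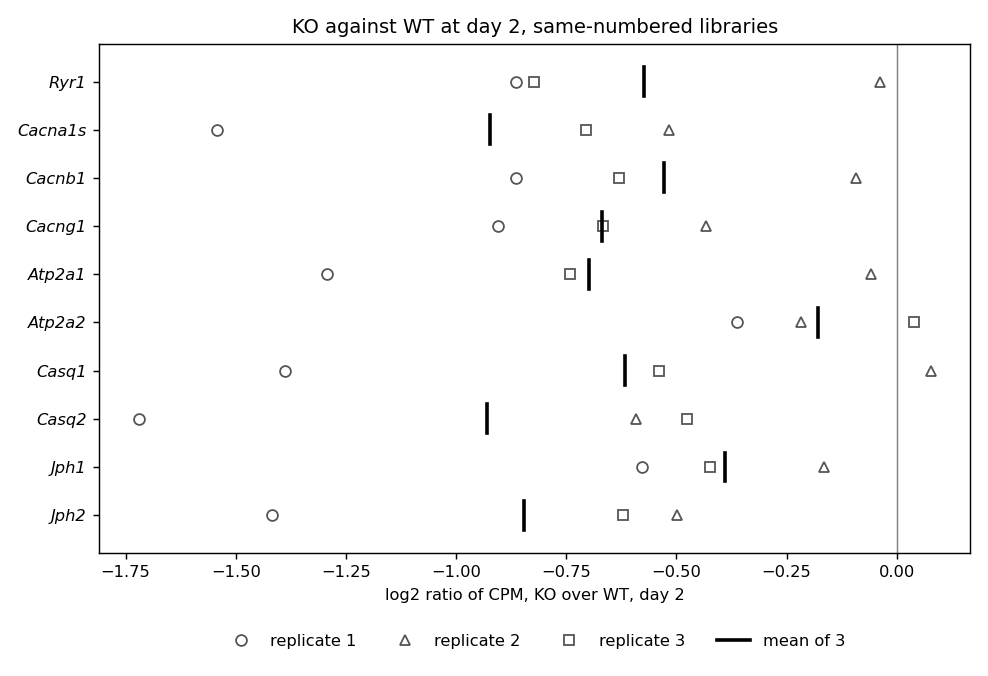
log2 ratio of CPM in KO over WT at D2 for the 10 genes, for each pair of libraries with the same replicate number (open symbols) and as the mean of the 3 (bars). All 10 means lie below 0, replicate 1 gives the lowest ratio for each gene, and the ratios above 0 are those of *Casq1* in replicate 2 and of *Atp2a2* in replicate 3.

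Other muscle genes moved in the same direction. All 6 markers of differentiating muscle were lower in each KO D2 library than in each WT D2 library, with log2 fold changes between -1.11 (*Ckm*) and -0.91 (*Myh3*). Over all genes tested, 3.81% were so separated, and 2.35% were separated with KO above WT. These shares also stand beside the counts of genes without overlap that follow. *Myog* was at 532, 386 and 261 CPM in WT D2 and at 213, 232 and 148 CPM in KO D2. A negative log2 fold change was found for 52.2% of all genes tested and a positive one for 47.8%. Of the 15 triad partners, 13 had a negative log2 fold change and 7 did not overlap (*Stac3*, *Jsrp1*, *Bin1*, *Cav3*, *Srl*, *Hrc* and *Tmem38a*). Of these, *Tmem38a* (log2 fold change -0.62) and *Srl* (-0.71) met the 1.5-fold rule in the fit with neither weights nor a block (limma adjusted p = 1.00 for both). There the rule called 0.255% of all genes lower. Of the 12 paralogues, 3 had a negative log2 fold change and 2 did not overlap (*Cacna1h* and *Cacng6*). Of the 5 fibroblast markers, 4 had a positive log2 fold change, and 1 of these, *Lum*, did not overlap. The part of the share of differentiated cells in the differences of the 10 genes was not tested.

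In Prol and D0, none of the 10 genes was called between KO and WT by limma after adjustment, where 0.00566% of all genes (1 gene) were higher in Prol and 0% in D0. None passed at an unadjusted p under 0.05 either, where 0.526% of all genes were higher and 0.583% lower in Prol and 0.368% higher and 1.1% lower in D0. The log2 fold change was positive for 5 genes and negative for 5 in Prol, and positive for 4 and negative for 6 in D0. Of all genes tested, 50.5% were positive in Prol and 53.4% in D0. The median log2 fold change of the 10 was -0.02 in Prol and -0.16 in D0. When the KO/WT value at Prol was subtracted from that at D2, the result was negative for all 10 genes with a median of -0.47, and none was called (limma adjusted p = 1.00). A negative difference was found for 52.3% of all genes tested. At an unadjusted p under 0.05 the difference was called for *Casq1* alone (-1.53, SE 0.70, limma unadjusted p = 0.0437), where 0.498% of all genes had a negative difference at this threshold. *Casq1* passed the filter only through D2. It was at the detection limit in WT Prol and had 2, 10 and 4 expected counts in KO Prol. This value thus depends on few counts and on the added 0.5 counts.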

How the data were processed

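RNA was sequenced from WT and LAP2α KO myoblasts in 6 groups of 3 libraries, which were grouped by the sample labels. Per the study's methods, the authors used cutadapt for trimming, NextGenMap for mapping to transcripts of GRCm38 and RSEM for expected counts per transcript. The authors then added up counts by gene, dropped low genes and scaled with edgeR (TMM) and limma-voom. The deposited values are CPM, each the expected count plus 0.5 over the library total times its scaling factor. This was tested on the values, and the 18 factors multiply to 1.000000. Expected counts were recovered from them, and 36.0% to 49.1% of those under 20 were whole (within 0.01), so no count test was used. This unit is not a log value, and tests used log2 of it with no further pseudocount.

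limma 3.58.1 in R 4.3.3 (lmFit, eBayes with a variance trend) was fitted with 1 factor of 6 groups to the 17672 genes for which some group had over 5 expected counts in each of its 3 libraries. Benjamini-Hochberg adjustment covered all of these. Where no library of a group exceeded 3 counts, the fold is a lower bound, computed against 3 counts per library. Ratios were tested by exact permutation. The fit was tested on simulated data. The genes, the lists of related genes and the rules for naming were chosen with earlier results of these data known. Named from each list are the 3 largest rises and up to 2 largest falls in WT D2/Prol, all SERCA regulators and paralogues tested, and *Stac3*, *Trdn*, *Cacna2d1*, *Bin1*, *Srl* and *Tmem38a*. Some results that these rules name are not reported here. Genes named among the non-overlapping ones in KO/WT D2, *Myh6*, *Lum* and *Cacnb3* were named after their values were seen. Positions and exon lengths are from GENCODE M21. The sequencing lane that the authors used as a block is not in the labels. Same-numbered libraries were compared by the correlation of their deviations from the group means across genes, which ranged from -0.0358 to 0.645 over 45 pairs and exceeded 0.1 in 40. All 3 numbers exceeded 0.1 in each comparison except WT D2/Prol (0.0393) and WT D2/D0 (0.0100), both in replicate 3. The alternatives were voom weights, other scaling, no filter, replicate blocks, a fit of only the groups compared, the 1.5-fold rule, a pseudocount of 1 CPM and each library left out. Leaving out both D2 replicate 1 libraries, the 1.5-fold rule in the other fits, and that rule with 1.5 on the log2 scale, were alternatives chosen after seeing the data. Figures were drawn with matplotlib 3.10.9.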

Additional observations from a re-analysis of the deposited data

How the results depend on the processing

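The 9 calls of D2 against Prol and of D2 against D0 were made in each genotype under voom weights, both other scalings, no filter, a fixed or random replicate block, without the libraries of the other groups, and without both D2 replicate 1 libraries. Among the 9 are *Cacna1s*, *Atp2a1* and *Casq1*, which passed the filter only through D2 and so had to differ. The 1.5-fold rule gave 8, since *Casq1* stayed below 10 CPM, and 7 to 8 with 1.5 as the threshold on the log2 scale. Leaving out single libraries gave 8 to 9 calls in KO D2/Prol and 9 in the other 3. No call in D0/Prol, KO/WT Prol, KO/WT D0 or the difference of the KO effect appeared under any of these. At D2, KO/WT gave 0 calls except under the 1.5-fold rule in 4 other fits: only the D2 libraries (5), voom weights (4), voom weights with a random replicate block (5) and a fixed replicate block (1). The cause was not tested. The block changed no other call. *Atp2a2*, which was called nowhere, changed sign: its log2 fold change was 0.081 in WT D2/Prol with library totals alone, which moved the median of all genes to 0.15, and without single libraries it ran from -0.55 to 0.19 in WT D2/Prol, from -0.67 to 0.0030 in KO D2/Prol and from -0.56 to 0.29 in KO/WT D2. A pseudocount of 1 CPM lowered the log2 fold changes of genes near 0 before D2, in WT for *Cacna1s* to 4.47, *Cacng1* to 4.66, *Casq1* to 2.77 and *Casq2* to 7.93. *Cacng1* and *Casq2* stayed called. So did *Cacna1s* and *Casq1*, whose calls were set in advance by the filter. Without KO Prol replicate 2, *Cacna1s* was at 9.56 in KO D2/Prol. The 3 ratios of paralogues kept their direction in each of 3 alternatives and without each library, and the adjusted p of *Jph1/Jph2* was 0.005 to 0.0313 (exact permutation). Depth limited *Cacna1s* and *Casq1* before D2, which had 11 or fewer expected counts in each Prol and D0 library.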
